A study of Homo sapiens with 6 samples.

Results

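Aminoacyl-tRNA synthetases are described here after a knockdown of MEN1 in HUDEP-2, an immortalised human cell line of erythroid progenitors. The members are 35 named genes of the 62754 in the deposited gene tables, 19 for cytosolic and 16 for mitochondrial enzymes, taken from a list of gene names with no threshold on any value. The list does not cover every human synthetase gene. Poly(A)-selected RNA was sequenced from 3 libraries labelled MEN1sh2, with the genotype label MEN1 knockdown, and from 3 labelled Controlsh, with the genotype label WT. Cells of both groups received a lentiviral shRNA, against MEN1 or non-targeting, and were kept in StemSpan SFEM with EPO at 3 units, SCF at 50 ng and doxycycline at 1 µg per ml and dexamethasone at 1e-06 M. Puromycin at 2 µg per ml was added at 24 h for 48 h, and RNA was profiled at 72 h. The labels call the libraries biological replicates and do not say whether they came from separate cultures, so the p-values measure the spread between these libraries. A single MEN1 hairpin in a single cell line was used, so that an off-target effect of the hairpin cannot be told apart from the loss of MEN1.

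An aminoacyl-tRNA synthetase joins an amino acid to its tRNA, the step that fixes which amino acid a codon will mean. The enzymes fall into class I and class II by the fold of their catalytic domain. Cytosolic translation and mitochondrial translation mostly use separate enzymes from separate nuclear genes, by convention named with a final 1 and 2, while GARS1 and KARS1 each supply both compartments. Several cytosolic enzymes sit together in the multi-tRNA synthetase complex, held by the scaffold proteins AIMP1, AIMP2 and EEF1E1. Uncharged tRNA activates the kinase GCN2, which raises translation of the transcription factor ATF4, and many cytosolic synthetase genes are known ATF4 targets. Erythroid cells depend on this machinery to make globin.

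MEN1 itself, which encodes menin, a subunit of the MLL1 histone methyltransferase complex, had 6.29, 6.44 and 6.88 TPM (a share of the library scaled for gene length) in the MEN1 shRNA libraries and 41.2, 39.6 and 37.1 TPM in the controls. Every MEN1 shRNA library was far below every control, at 16.6% of the control mean (log2 fold change -2.42, SE 0.0803, limma adjusted p 8.54e-06). Depth derived from coverage was 5560000000 to 10810000000 aligned bases per library. Erythroid markers were high in every library, with a summed level of the 10 listed genes of 55598 to 61671 TPM in the controls and 96249 to 108250 TPM with the MEN1 shRNA. HBB, HBA1 and HBA2 made up 92.7% to 94.5% of that sum. Of the 10 genes 8 rose by the call defined below, against 22.1% of all genes tested. The other 2, KLF1 and GATA1, named after their values were seen, did not pass. The part that globin genes took of all TPM was 5.51% in the controls and 9.90% with the MEN1 shRNA. The summed level of 5 megakaryocyte markers was 31.8 to 36.7 TPM in the controls and 16.6 to 21.3 TPM with the MEN1 shRNA, with 97.3% to 99.6% of it from ITGA2B and with PF4 and PPBP at 0. The sum of 5 myeloid markers was 2.13 to 2.40 and 0.396 to 0.964 TPM, that of 4 lymphoid markers 0.452 to 0.803 and 0.274 to 0.946 TPM with MS4A1 at 0, and that of 4 mast cell or basophil markers 577 to 750 and 422 to 505 TPM, nearly all TPSAB1. The share of these marker differences in the results below was not tested. In bulk RNA, fewer cells expressing a gene and less RNA per cell cannot be told apart.

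Most synthetase genes were lower with the MEN1 shRNA. Those that rose were 4 genes of purely cytosolic enzymes and GARS1, which is counted among the cytosolic members here and also supplies mitochondria. A gene was called when its adjusted p in limma on log2(TPM + 1) was under 0.05 over the 14294 genes with a TPM of at least 1 in at least 3 libraries, a filter that all 35 members passed. Of the 35 members, 5 rose, 21 fell and 9 did not pass. Over all genes tested, 53.6% were called, 22.1% higher and 31.5% lower, so the members' share of rises (14.3%) was below and their share of falls (60%) above the background. Under median-of-ratios scaling 26.3% of all genes were higher and 26.9% lower, and 5 members were higher and 16 lower. The median log2 fold change was -0.27 over the members and -0.07 over all genes tested. The groups did not overlap in 28 members, 5 higher and 23 lower, where the backgrounds were 25.8% and 35.9% of genes, or 61.8% in either direction.

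Cytosolic members moved in both directions. Of the 19, 5 rose (26.3%, near the background of 22.1%), 10 fell (52.6%) and 4 did not pass, with log2 fold changes from -1.28 to 0.81 and a median of -0.27. Their summed level was 4056, 4079.85 and 4164 TPM in the controls and 3803, 3860.4 and 3819 TPM with the MEN1 shRNA. The MEN1 shRNA libraries were all lower in this sum, which stood at 93.3% of the control mean. Under median-of-ratios scaling the same ratio was 99.2%, so that the size of this difference moved with the scaling. The plot of cytosolic genes by library shows each of these values.

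**Figure D1:**
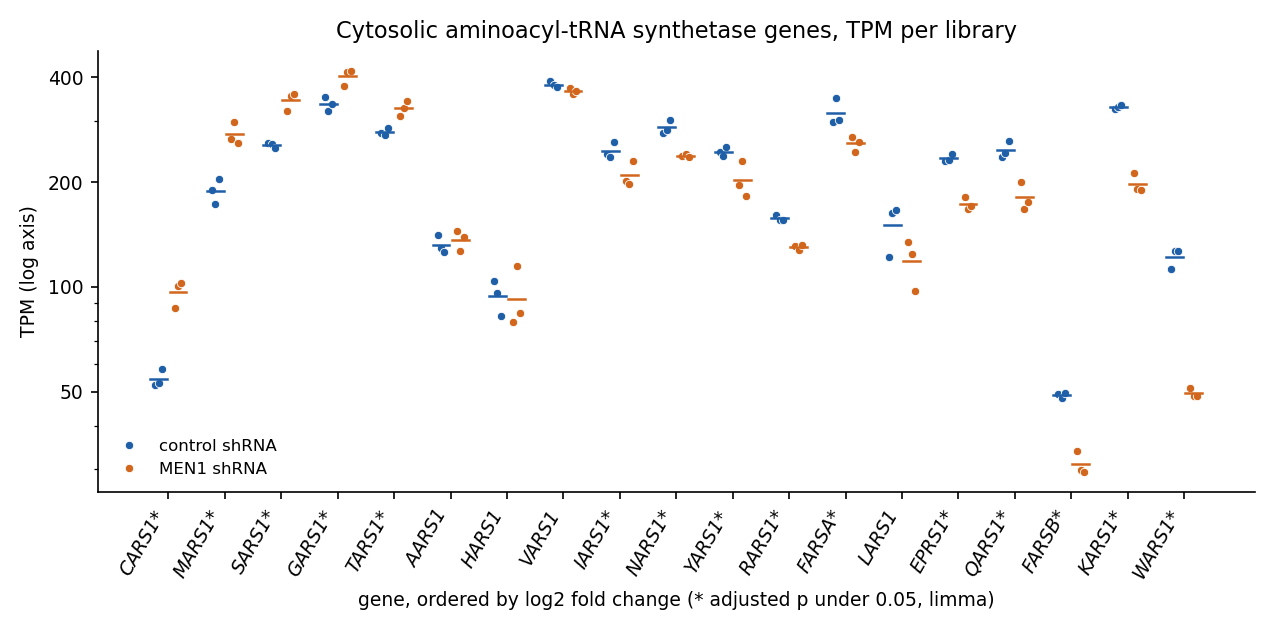
TPM on a log axis for the 19 cytosolic synthetase genes, ordered by log2 fold change; each point is a library (3 control shRNA, 3 MEN1 shRNA), each bar a group mean, and an asterisk marks an adjusted p under 0.05 in limma. CARS1 shows the largest rise among them (54.5 to 96.6 TPM) and WARS1 the largest fall (122 to 49.5 TPM).

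CARS1, cysteinyl-tRNA synthetase (ENSG00000110619, chromosome 11, 3000922 to 3057613, minus strand), rose most. It had 52.3, 53.0 and 58.1 TPM in the controls and 87.0, 100.5 and 102 TPM with the MEN1 shRNA. All MEN1 shRNA libraries were above all controls, with means of 96.6 ± 8.38 and 54.5 ± 3.13 TPM (SD, n = 3 each). This was 177% of the control mean, a log2 fold change of 0.81 (SE 0.0812, limma adjusted p 0.000158).

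MARS1, the cytosolic methionyl-tRNA synthetase (ENSG00000166986, chromosome 12, 57475445 to 57517569, plus strand), charges both initiator and elongator methionine tRNA. Its level was 189, 173 and 204 TPM in the controls and 266, 297 and 259 TPM with the MEN1 shRNA, so the groups did not overlap. It rose by 0.54 on the log2 scale (SE 0.0811, adjusted p 0.00103, limma), from 189 ± 15.5 to 274 ± 20.5 TPM (SD, n = 3 each). The last 982 bases of MARS1 in the tables overlap DDIT3 on the opposite strand, which rose from 9.35 ± 1.06 to 23.4 ± 6.22 TPM. The first 13370 bases of its deposited span overlap ARHGAP9, also on the opposite strand and at 4.29 TPM in the controls and 2.72 TPM with the MEN1 shRNA. The MARS1 start used for the promoter windows below lies inside that stretch, in 57488053 to 57488082. No source used here says whether strand was used in quantification, and the part of these overlaps in the MARS1 value was not tested.

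SARS1, seryl-tRNA synthetase (ENSG00000031698, chromosome 1, 109213918 to 109238182, plus strand), whose enzyme also charges the selenocysteine tRNA with serine, had 258, 257 and 251 TPM in the controls. The MEN1 shRNA libraries had 321, 353 and 358 TPM, all above the controls. It rose by 0.43 on the log2 scale (SE 0.0587, limma adjusted p 0.000665). GARS1, glycyl-tRNA synthetase (ENSG00000106105, chromosome 7, 30580533 to 30634033, plus strand), had 351, 319 and 334 TPM in the controls and 377, 415 and 417 TPM with the MEN1 shRNA. It rose without overlap by 0.27 (SE 0.0638, adjusted p 0.00939, limma) and stood first among the cytosolic members with the MEN1 shRNA. TARS1, threonyl-tRNA synthetase (ENSG00000113407, chromosome 5, 33440696 to 33468091, plus strand), had 277, 273 and 286 TPM in the controls and 309, 327 and 343 TPM with the MEN1 shRNA. Its rise of 0.23 (SE 0.0572, adjusted p 0.0122, limma) was the smallest of the 5. In GARS1, SARS1, TARS1 and CARS1, MEN1 shRNA replicate 1 was the lowest of its group and still above every control.

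WARS1, tryptophanyl-tRNA synthetase (ENSG00000140105, chromosome 14, 100333790 to 100376805, minus strand), a gene also known to respond to interferon, fell most among the cytosolic members. Its level was 113, 127 and 127 TPM in the controls and 51.4, 48.6 and 48.6 TPM with the MEN1 shRNA. The lowest control was thus above the highest MEN1 shRNA library by a wide margin. It fell by 1.28 on the log2 scale (SE 0.0673, limma adjusted p 2.33e-05), with 40.6% of the control mean remaining (49.5 ± 1.59 against 122 ± 8.01 TPM, SD, n = 3 each).

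KARS1, lysyl-tRNA synthetase of both compartments (ENSG00000065427, chromosome 16, 75627474 to 75648643, minus strand), had 324, 328 and 332 TPM in the controls and 213, 191 and 190.4 TPM with the MEN1 shRNA. The groups did not overlap, and the control libraries lay within a narrow band. It fell by 0.73 on the log2 scale (SE 0.0599, adjusted p 7.63e-05, limma), and its rank among the 19 cytosolic members went from 3 to 10. GARS1, the other enzyme that serves both compartments, rose.

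The subunits of cytosolic phenylalanyl-tRNA synthetase, a tetramer of FARSA (alpha) and FARSB (beta) chains, both fell. FARSB (ENSG00000116120, chromosome 2, 222566899 to 222656092, minus strand) had 49.4, 48.1 and 49.5 TPM in the controls and 33.8, 29.9 and 29.4 TPM with the MEN1 shRNA, the lowest level of any cytosolic member in both groups. Its log2 fold change was -0.64 (SE 0.0727, adjusted p 0.000266, limma). FARSA (ENSG00000179115, chromosome 19, 12922479 to 12934037, minus strand) had 297, 349 and 301 TPM in the controls and 269, 245 and 260.3 TPM with the MEN1 shRNA. It was lower in every MEN1 shRNA library by -0.29 on the log2 scale (SE 0.0767, adjusted p 0.015, limma). The mRNA level of FARSA was thus several times that of its partner in all 6 libraries.

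QARS1, glutaminyl-tRNA synthetase, had 236, 243 and 263 TPM in the controls and 200.3, 167 and 175 TPM with the MEN1 shRNA, and fell by 0.45 on the log2 scale (SE 0.0800, adjusted p 0.00228, limma). EPRS1, a fused glutamyl- and prolyl-tRNA synthetase, had 229, 231 and 242 TPM in the controls and 181, 168 and 171 TPM with the MEN1 shRNA, and fell by 0.43 (SE 0.0544, adjusted p 0.000432, limma). Neither gene showed overlap between the groups. Smaller falls were measured for RARS1, arginyl (-0.27, adjusted p 0.00254), NARS1, asparaginyl (-0.27, adjusted p 0.00395), YARS1, tyrosyl (-0.27, adjusted p 0.0294) and IARS1, isoleucyl (-0.23, adjusted p 0.0312). The calls of YARS1, IARS1 and FARSA were lost under some other settings (11, 8 and 2 of 14), where their adjusted p reached 0.135, 0.137 and 0.0533.

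The remaining 4 cytosolic members did not pass. LARS1, leucyl-tRNA synthetase, had 122, 162 and 166 TPM in the controls and 134, 124 and 97.5 TPM with the MEN1 shRNA. Control replicate 1 lay among the MEN1 shRNA libraries, and the difference was -0.34 on the log2 scale (SE 0.153, limma adjusted p 0.101). Without that library it was -0.48 with an adjusted p of 0.0253. VARS1, valyl-tRNA synthetase and the highest cytosolic member in the controls, had 389, 381 and 374 TPM there and 371, 358 and 365 TPM with the MEN1 shRNA. Its groups did not overlap, but the difference of -0.06 had an adjusted p of 0.311 and changed sign under 2 other scalings. AARS1, alanyl-tRNA synthetase, and HARS1, histidyl-tRNA synthetase, had log2 fold changes of 0.05 (95% confidence interval -0.12 to 0.21) and -0.04 (-0.38 to 0.31), with groups that overlapped.

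Grouping the cytosolic members by known role gave these counts, to be read against the 22.1% of all genes that were higher and the 31.5% that were lower. Among the 7 members of the multi-tRNA synthetase complex, MARS1 rose, LARS1 did not pass, and EPRS1, IARS1, KARS1, QARS1 and RARS1 fell. Of the 12 cytosolic members outside the complex, 4 rose, 5 fell and 3 did not pass. By catalytic class, 2 of 10 class I members rose and 6 fell, and 3 of 9 class II members rose and 4 fell. Known ATF4 targets were taken to be AARS1, CARS1, EPRS1, GARS1, IARS1, LARS1, MARS1, NARS1, SARS1, TARS1, WARS1 and YARS1. Of these 12, 5 rose (41.7%) and 5 fell (41.7%), with a median of -0.09. Of the other 7, 0 rose in limma, also at an unadjusted p under 0.05, and 5 fell (median -0.29). Groups of this size and choice allow no reading of a count of 0, and no difference between these subgroups was tested.

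Mitochondrial members were mostly lower. Of the 16, 0 rose in limma, also at an unadjusted p under 0.05, 11 fell (68.8%, against a background of 31.5%) and 5 did not pass. The log2 fold changes ran from -1.74 to 0.04 with a median of -0.46, and 14 were negative. The summed level was 546, 573 and 583 TPM in the controls and 433, 394 and 399.6 TPM with the MEN1 shRNA. Every MEN1 shRNA library was below every control in this sum, at 72.0% of the control mean, and at 76.6% under median-of-ratios scaling. The ratio was 75.5% after TPM was rescaled without globin and mitochondrial genome genes. By class, 7 of 9 class I members and 4 of 7 class II members fell. The plot of mitochondrial genes by library gives the values.

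**Figure D2:**
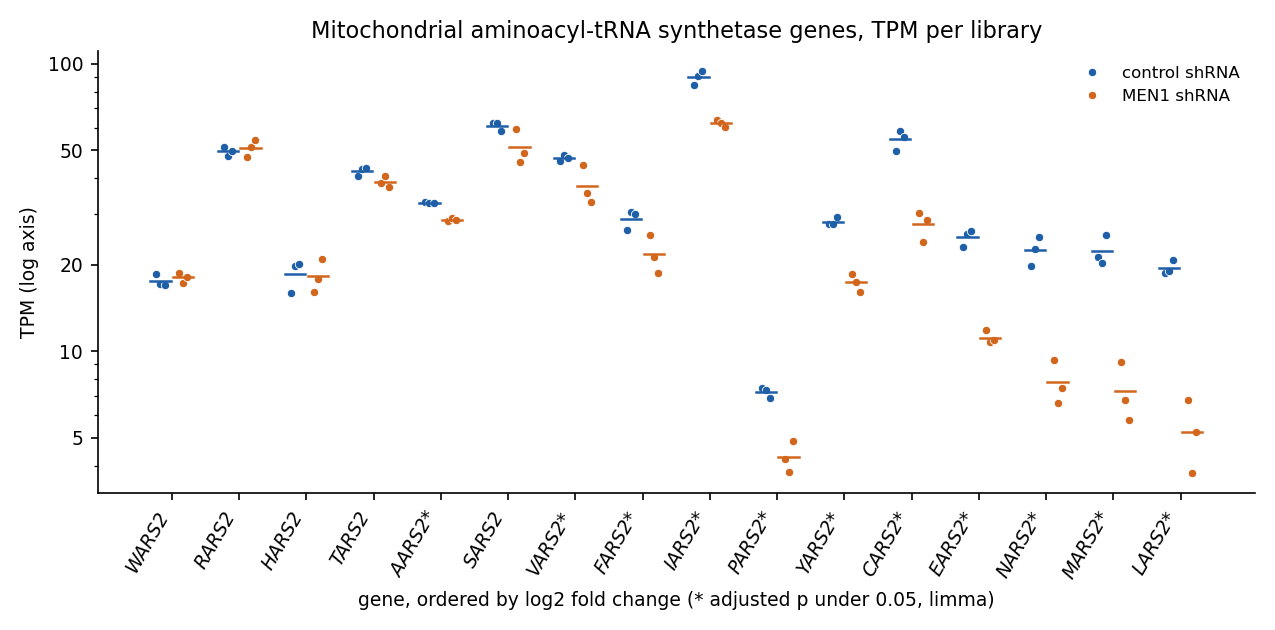
TPM on a log axis for the 16 mitochondrial synthetase genes, ordered by log2 fold change; points are libraries (3 control shRNA, 3 MEN1 shRNA), bars are group means and an asterisk marks an adjusted p under 0.05 in limma. EARS2, NARS2, MARS2 and LARS2, on the right, were below 45% of control, while WARS2, RARS2 and HARS2, on the left, overlapped between groups.

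LARS2, mitochondrial leucyl-tRNA synthetase (ENSG00000011376, chromosome 3, 45388561 to 45554726, plus strand), had 18.8, 19.04 and 20.9 TPM in the controls and 6.76, 3.77 and 5.22 TPM with the MEN1 shRNA. No MEN1 shRNA library came near the controls, and the mean was 26.8% of theirs. It fell by 1.74 on the log2 scale (SE 0.171, limma adjusted p 0.000146), the largest fall of the 35 members. MARS2, the mitochondrial methionyl enzyme (ENSG00000247626, chromosome 2, 197705369 to 197708395, plus strand), had 21.3, 20.2 and 25.4 TPM in the controls and 9.21, 6.79 and 5.77 TPM with the MEN1 shRNA. It fell by 1.51 on the log2 scale (SE 0.163, adjusted p 0.000218, limma), to 32.5% of control, with no overlap.

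NARS2, mitochondrial asparaginyl-tRNA synthetase (ENSG00000137513, chromosome 11, 78435620 to 78575194, minus strand), had 19.9, 22.7 and 24.96 TPM in the controls and 9.35, 6.63 and 7.46 TPM with the MEN1 shRNA. The groups lay far apart, at 34.7% of control with a log2 fold change of -1.42 (SE 0.137, adjusted p 0.000136, limma). EARS2, the mitochondrial glutamyl enzyme (ENSG00000103356, chromosome 16, 23520754 to 23557731, minus strand), which also puts glutamate on the mitochondrial glutamine tRNA for later amidation, had 23.01, 25.7 and 26.2 TPM in the controls. With the MEN1 shRNA it had 11.8, 10.8 and 10.9 TPM, all below the controls. It fell by 1.09 (SE 0.0851, adjusted p 6.23e-05, limma), the lowest adjusted p among the mitochondrial members. CARS2, the mitochondrial cysteinyl enzyme (ENSG00000134905, chromosome 13, 110641412 to 110713603, minus strand), had 49.9, 58.2 and 55.7 TPM in the controls and 30.4, 24.1 and 28.5 TPM with the MEN1 shRNA. Its groups did not overlap, and it fell by 0.96 (SE 0.102, adjusted p 0.000205, limma).

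IARS2, the mitochondrial isoleucyl enzyme, had the highest level of the 16 in both groups. It had 84.3, 90.6 and 94.6 TPM in the controls and 64.0, 62.3 and 60.5 TPM with the MEN1 shRNA, and fell by 0.52 on the log2 scale (SE 0.0640, adjusted p 0.000389, limma). YARS2, the tyrosyl enzyme, fell from 28.2 ± 0.880 to 17.4 ± 1.23 TPM (SD, n = 3 each; -0.67, adjusted p 0.000306, limma). PARS2, the prolyl enzyme and the lowest member of all, had 7.43, 7.36 and 6.86 TPM in the controls and 4.205, 3.79 and 4.89 TPM with the MEN1 shRNA (-0.64, adjusted p 0.00257, limma). At such levels the pseudocount of 1 makes the log2 change understate the ratio of TPM, which was 59.5% of control. None of IARS2, YARS2 and PARS2 overlapped between groups. YARS2 shares 18161 bases with DNM1L, a mitochondrial fission gene on the opposite strand, which fell from 77.4 ± 1.14 to 41.1 ± 4.91 TPM, and the part of this overlap in the YARS2 value was not tested.

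FARS2, VARS2 and AARS2 fell by less: the phenylalanyl enzyme changed by -0.40 (adjusted p 0.0227), the valyl enzyme by -0.32 (adjusted p 0.0362) and the alanyl enzyme by -0.19 (adjusted p 0.0305). AARS2 had 33.0, 32.7 and 32.8 TPM in the controls and 28.5, 29.03 and 28.6 TPM with the MEN1 shRNA, a small difference with little spread. The calls of all 3 were lost under some of the 14 other settings, 7 for FARS2, 11 for VARS2 and 9 for AARS2, with an adjusted p of up to 0.0747, 0.108 and 0.191. VARS2 lies within an unnamed gene (ENSG00000288473) of the same tables. With the TPM of that gene added, an alternative added after the data were seen, its log2 fold change was -0.45 (adjusted p 0.0167, limma).

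The remaining 5 mitochondrial members did not pass. SARS2, the seryl enzyme, had 62.2, 62.2 and 58.6 TPM in the controls and 59.4, 45.4 and 49.2 TPM with the MEN1 shRNA. MEN1 shRNA replicate 1 overlapped the controls, and the difference was -0.25 (SE 0.0999, adjusted p 0.065, limma); without that library it was -0.36 with an adjusted p of 0.0046. TARS2, the threonyl enzyme, had 40.8, 43.2 and 43.6 TPM in the controls and 38.7, 40.7 and 37.2 TPM with the MEN1 shRNA. Its groups did not overlap, with a difference of -0.13 and an adjusted p of 0.139. WARS2, the tryptophanyl enzyme, had 18.5, 17.1 and 17.01 TPM in the controls and 18.7, 17.3 and 18.2 TPM with the MEN1 shRNA. Its groups overlapped, and its log2 fold change of 0.04 had a 95% confidence interval of -0.14 to 0.22. RARS2, arginyl, at 0.04 (-0.13 to 0.20) and HARS2, histidyl, at -0.03 (-0.32 to 0.27) also overlapped between groups.

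For 17 pairings of a cytosolic with a mitochondrial gene of the same amino acid, the difference of their log2(TPM + 1) was taken within each library, so that a common scaling of the library largely cancels. This cytosolic-to-mitochondrial ratio was higher in every MEN1 shRNA library than in every control for 10 pairings, lower for 3, and overlapped for 4. Since the groups did not overlap in 61.8% of single genes, and pairs of other genes were not examined, this count is not read as particular to synthetases. With 3 libraries against 3, an exact two-sided permutation test over libraries cannot give a p below 0.1, and the 13 pairings without overlap all had that p (Benjamini-Hochberg adjusted over the 17, 0.131). EPRS1 and FARS2 enter 2 pairings each.

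**Figure D3:**
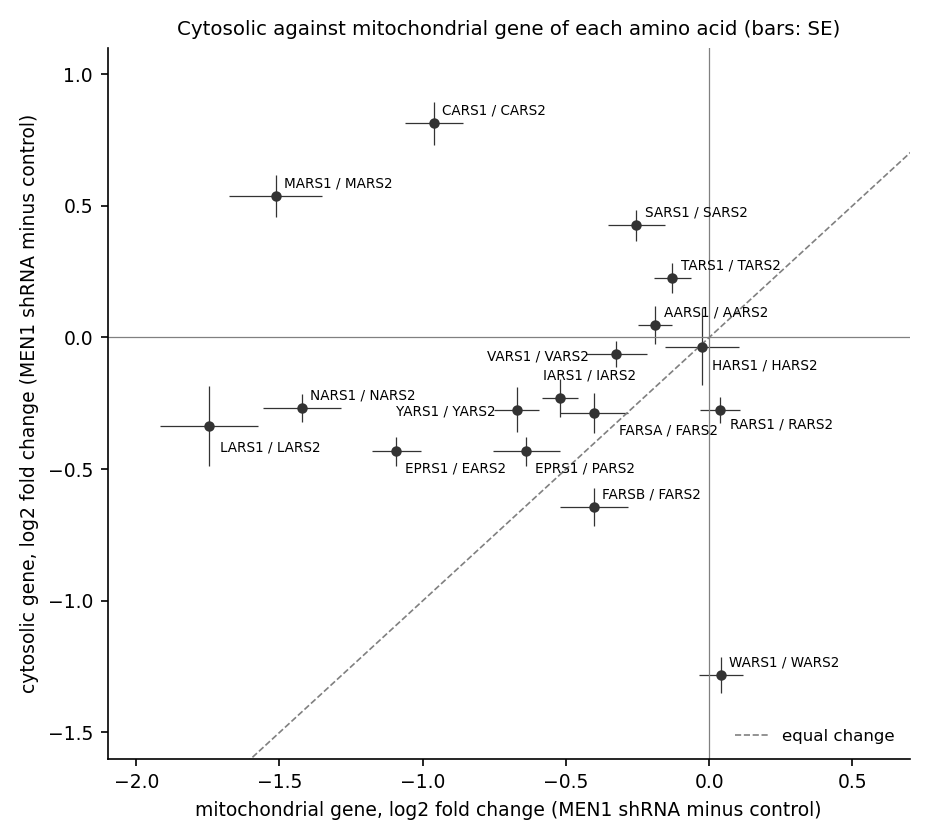
Log2 fold change (MEN1 shRNA minus control) of the cytosolic gene (vertical axis) against that of the mitochondrial gene (horizontal axis) for the 17 pairings; bars are SE and the dashed line marks equal change. MARS1/MARS2 and CARS1/CARS2 lie furthest to the upper left, with the cytosolic gene called higher and the mitochondrial gene called lower. SARS1/SARS2, TARS1/TARS2 and AARS1/AARS2 lie in the same quadrant, with SARS2, TARS2 and AARS1 not past the threshold. WARS1/WARS2 lies alone at the bottom, where the cytosolic gene fell by 1.28.

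The methionyl pair moved furthest apart. The log2 ratio of MARS1 to MARS2 was 3.03 ± 0.0700 in the controls and 5.08 ± 0.319 with the MEN1 shRNA (SD, n = 3 each), a change of 2.05. CARS1 and CARS2 stood at equal levels in the controls, with a log2 ratio of -0.00 ± 0.113, and differed by 1.77 ± 0.267 with the MEN1 shRNA. In both pairs the cytosolic gene rose and the mitochondrial gene fell.

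For leucine and asparagine the log2 ratio was higher by 1.41 and 1.15. LARS2 and NARS2 fell, LARS1 did not pass and NARS1 fell by less than its mitochondrial partner. Increases of 0.68 for serine, 0.66 for EPRS1 to EARS2, 0.40 for tyrosine, 0.35 for threonine, 0.29 for isoleucine and 0.23 for alanine were also free of overlap. Tryptophan was the reverse: the log2 ratio of WARS1 to WARS2 was 2.73 ± 0.160 in the controls and 1.40 ± 0.0328 with the MEN1 shRNA, a change of -1.32. RARS1 to RARS2 changed by -0.31 and FARSB to FARS2 by -0.24. The pairings HARS1 with HARS2, VARS1 with VARS2, EPRS1 with PARS2 and FARSA with FARS2 overlapped between groups.

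Beyond the synthetases, 18 listed genes that handle or deliver charged tRNA were read in the same fit. Of these, 0 rose in limma, also at an unadjusted p under 0.05, 14 fell (77.8%, against 31.5% of all genes tested) and 4 did not pass, with a median of -0.57. This list too was chosen with earlier results of these data known, so its share is not a test of these genes as a set. Over the 14 alternatives the count lower was 10 to 14, and 10 of the 14 genes kept their call in each. The calls of AIMP1, AIMP2, XPOT and MTFMT were lost under 10, 9, 11 and 6 of the alternatives, with an adjusted p of up to 0.18, 0.3, 0.27 and 0.0872. Among the scaffold proteins of the multi-synthetase complex, EEF1E1 fell by 0.70 on the log2 scale under a call that held throughout, while AIMP1 and AIMP2 fell by 0.20 and 0.16, and both lost the call under FPKM and both other scalings. The subunits of the amidotransferase that turns glutamate into glutamine on the mitochondrial glutamine tRNA fell as well, QRSL1 by 0.78, GATB by 0.66 and GATC by 0.62, as did EARS2, which acts just before them. TUFM, the mitochondrial elongation factor that carries charged tRNA to the ribosome, had 360.5, 355 and 364 TPM in the controls and 251, 229 and 229 TPM with the MEN1 shRNA. Every MEN1 shRNA library was below the controls, with a log2 fold change of -0.61 (adjusted p 0.000114, limma). DTD2 and DTD1, deacylases that clear wrongly charged tRNA, fell by 1.39 and 0.82, and AARSD1, an editing protein, by 0.53. TRNT1, which adds the terminal CCA to tRNA, fell by 0.84, TARS3, a threonyl-tRNA synthetase-like gene, by 0.76, MTFMT, the mitochondrial formyltransferase, by 0.44, and XPOT, the tRNA exporter, by 0.16.

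ATF4 and other genes of the amino acid response that are not synthetases moved the other way. Of 16 listed, 15 passed the filter, 13 of them rose (86.7%, against 22.1% of all genes tested), 1 fell and 1 did not pass, and the median log2 fold change was 0.61. The list was chosen with earlier results of these data known, so this share is not a test of an ATF4 response. ATF4 itself had 484, 464 and 513 TPM in the controls and 634, 715 and 713 TPM with the MEN1 shRNA, with no overlap (0.50, SE 0.0686, adjusted p 0.000688, limma). SLC7A11, the cystine transporter, had 3.59, 3.45 and 3.99 TPM in the controls and 12.8, 17.3 and 17.8 TPM with the MEN1 shRNA. All MEN1 shRNA libraries were well above the controls, and it rose by 1.85 on the log2 scale (SE 0.139, adjusted p 5.43e-05, limma). SESN2, a leucine sensor upstream of mTORC1, rose by 1.74. SLC7A5, a transporter of large neutral amino acids, had 55.4, 36.9 and 52.1 TPM in the controls and 66.9, 173 and 174 TPM with the MEN1 shRNA. MEN1 shRNA replicate 1 was much nearer the controls than replicates 2 and 3 (log2 fold change 1.39, SE 0.359, adjusted p 0.0129, limma). This call was lost with no filter on low values (adjusted p 0.0662). DDIT3 (1.21), CHAC1 (1.12), TRIB3 (0.91), SLC3A2 (0.66), ATF5 (0.61), ASNS, asparagine synthetase (0.59), PHGDH (0.56), PSAT1 (0.47) and MTHFD2 (0.30) rose, and SHMT2, of mitochondrial serine metabolism, fell by 0.22, a call lost under both other scalings. The plot of groups sets these genes beside the synthetases.

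**Figure D4:**
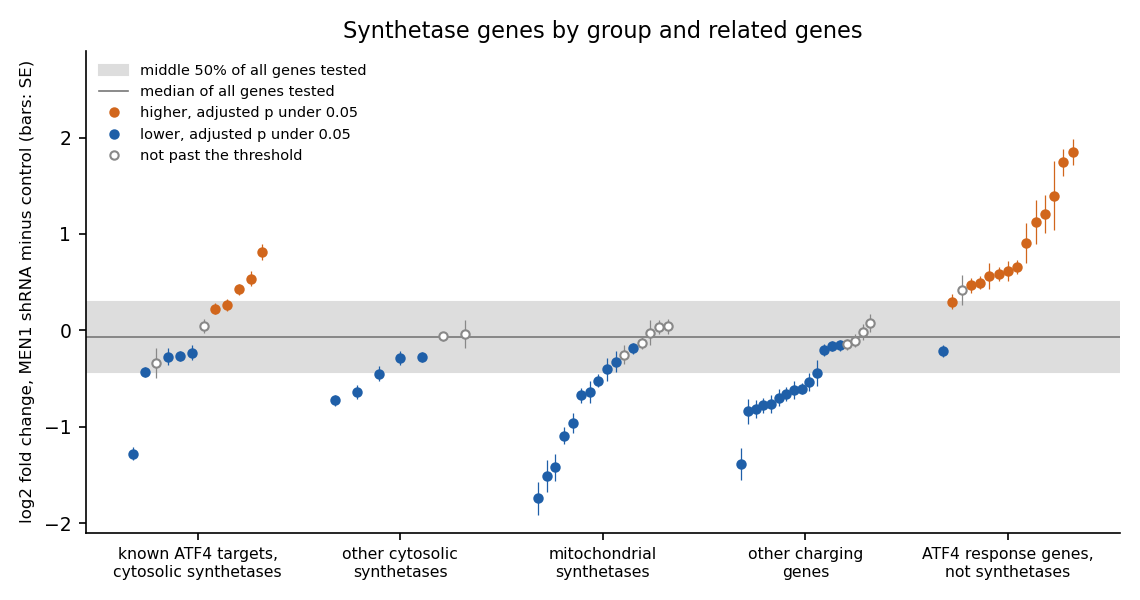
Log2 fold change (MEN1 shRNA minus control, bars SE) of single genes in 5 groups: 12 cytosolic synthetase genes known as ATF4 targets, the other 7 cytosolic, 16 mitochondrial, 18 other charging genes and 15 ATF4 response genes that are not synthetases; colours give the limma call and the grey band the middle 50% of all genes tested. Filled orange points (rises) occur in the first and the last group only, with 5 and 13 genes. The groups were chosen with earlier results of these data known.

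Promoter sequence was read for 30 of the 35 members, those with an entry among the RefSeq promoters of GRCh38.p14 (39 windows of 300 bases, 250 before and 50 after an annotated start). AARS2, LARS1, VARS1, VARS2 and YARS1 were not matched. Both strands were searched for TGATGNAA, the core of the C/EBP-ATF response element bound by ATF4, for CACGTG, the E-box, and for the palindromic motif of NRF1, a regulator of nuclear genes for mitochondria. TGATGNAA was found in 8 of the 30 members, 7 cytosolic and 1 mitochondrial, and in 4.46% of all 27305 genes with a window. Among the 5 members that rose, CARS1, MARS1, GARS1 and TARS1 held it and SARS1 did not. It was also found in IARS1 and NARS1, which fell, and in AARS1, which did not pass. The 27305 genes were not limited to those tested for expression. All 7 cytosolic holders are on the list of known ATF4 targets above, so their number is not read against the share of all genes. These 7 cytosolic genes were picked for display after the values were seen, and no link between the motif and a rise was tested. Their windows are shown on the strand of the gene, with the motif in capitals (TTGCATCA and TTTCATCA are the motif read on the other strand).
CARS1, chr11:3057407-3057436, minus strand: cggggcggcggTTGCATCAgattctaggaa
MARS1, chr12:57488053-57488082, plus strand: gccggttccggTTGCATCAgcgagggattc
TARS1, chr5:33440956-33440985, plus strand: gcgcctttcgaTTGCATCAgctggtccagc
GARS1, chr7:30594834-30594863, plus strand: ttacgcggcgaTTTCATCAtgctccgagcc
IARS1, chr9:92293692-92293721, minus strand: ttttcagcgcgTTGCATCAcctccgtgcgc
AARS1, chr16:70289675-70289704, minus strand: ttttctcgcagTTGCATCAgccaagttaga
NARS1, chr18:57621804-57621833, minus strand: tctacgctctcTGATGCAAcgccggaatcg

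The motif lay across the annotated start in CARS1 (bases -2 to 6) and MARS1 (-4 to 4), and just inside the transcript in TARS1 (3 to 10) and NARS1 (15 to 22), with the first transcribed base as 1 or, upstream, counted back from -1. In IARS1 it lay at -13 to -6, in GARS1 at -33 to -26 and in AARS1 at -187 to -180. CARS1, with the rise of 0.81, and IARS1, with the fall of 0.23, both hold TTGCATCA within 13 bases of the start. A match describes the letters of these windows and is no evidence that a factor binds there.

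CACGTG was found in 4 members, IARS1 and the mitochondrial MARS2, CARS2 and EARS2, and in 8.77% of all genes with a window. The longer NRF1 motif was found in MARS2 alone among the members, and in 1.52% of all genes. The 4 members with CACGTG are few, and their number was not tested against the share of all genes. IARS1, which fell by 0.23, is not shown. The mitochondrial matches are shown, in capitals and on the strand of the gene, because these 3 genes were among the 5 largest falls of the 16. This choice was made after the values were seen, and no link between a motif and a fall was tested.
CARS2, chr13:110706502-110706529, minus strand: gctgggatgcaCACGTGcttcgctaaca
EARS2, chr16:23557349-23557376, minus strand: agggagaagccCACGTGtgctattccat
MARS2, chr2:197705309-197705368, plus strand, the 60 bases before the start: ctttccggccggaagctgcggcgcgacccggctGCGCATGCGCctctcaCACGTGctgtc

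In MARS2 the matches to the NRF1 motif (-27 to -18) and to CACGTG (-11 to -6) are separate, and no match to one motif overlapped a match to another in any member. LARS2 and NARS2, with the other large falls, held none of the 3 motifs in these windows. YARS2, which fell by 0.67, held the form TGATGGAA at -197 to -190.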

How the data were processed

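RNA-seq gene tables of 6 HUDEP-2 libraries (3 MEN1 shRNA, 3 control shRNA, grouped by sample title) were used. The submitters' processing notes name FastQC, Trimmomatic, STAR 2.7.1a, Picard 2.20.4, StringTie 2.0.4 and hg38. No source used here gives the options, the annotation or the use of strand. Libraries were poly(A) selected and directional, per the labels' protocols. TPM and FPKM were computed by the authors, and the deposited TPM sum to 1000000 per library. Deposited coverage, a signal per base, gave the depth: 5560000000 to 10810000000 aligned bases, with 2.55 to 1179 reads per base over the members. In control replicate 2, 2 values just below 0 in the deposited columns of TPM and coverage (other values, since negative) were set to 0. The tables hold no counts.

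Genes with TPM of 1 or more in at least 3 libraries (14294 of 62754) were fitted with limma 3.58.1 in R 4.3.3 on log2(TPM + 1), eBayes with trend, two-sided, p adjusted after Benjamini-Hochberg over every gene tested and a threshold of 0.05. No adjustment was made over the members alone. Ratios within an amino acid were compared by exact permutation over libraries. As a check of the code only, the fit was run on simulated data with known changes. That simulation had independent noise and far fewer changed genes than were called here, and no result rests on it. Figures and motif searches used Python 3.11.15, pandas 2.3.3, NumPy 2.4.6 and matplotlib 3.10.9. Promoters came from RefSeq (GRCh38.p14), gene positions from the tables (hg38).

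The members, the gene lists, the subgroups and the motifs were chosen with earlier results of these data known. All members are named. Of the other lists, the genes past the threshold may be named. Neighbours that overlap a member, or start within 1 kb on the other strand, may be named too. Alternatives tried were another pseudocount, 2 other filters, FPKM, 2 other scalings, no trend, a replicate block and leaving out each library. Same-numbered libraries of the groups deviated together with correlations of 0.0171, -0.0265 and -0.0124, so the numbers were not treated as pairs.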

Additional observations from a re-analysis of the deposited data

How the results depend on the processing

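Over 14 alternatives, 20 of the 26 called members stayed past the threshold in each (5 cytosolic higher, 7 cytosolic lower, 8 mitochondrial lower). YARS1, VARS2, AARS2, IARS1, FARS2 and FARSA were lost in some. The counts ranged from 7 to 10 cytosolic and 8 to 12 mitochondrial genes lower. Of 490 comparisons of a member with an alternative, 426 kept direction and call, 48 lost the call and 2 gained it (LARS1 without control replicate 1, SARS2 without MEN1 shRNA replicate 1). The median of the cytosolic members was -0.24 with FPKM, -0.18 with median-of-ratios scaling, -0.20 rescaled without globin and mitochondrial genome genes, and -0.26 to -0.20 with a library left out. Their summed level was 95.5%, 99.2% and 97.8% of control in the same order and 92.9% to 94.1% with a library left out. For the mitochondrial sum, median-of-ratios scaling gave 76.6%. SHMT2, the 1 ATF4 response gene that fell, was lost (count 0) with no filter, under both scalings, with no trend and without some libraries (0 to 1). Reversals were limited to members not past the threshold. HARS1 was 0.052 and 0.031 under median-of-ratios and rescaled values, and -0.20 to 0.067 with a library left out. HARS2 was 0.0053 with FPKM, 0.058 and 0.039 under the scalings, and -0.13 to 0.058 with a library left out. VARS1 was 0.026 and 0.0045 under the scalings, RARS2 was -0.0079 without MEN1 shRNA replicate 3 (up to 0.088 without another), and the HARS1 to HARS2 ratio changed by -0.19 to 0.17 with a library left out. The cause was not tested in any of these. With the replicate block 5 cytosolic genes were higher and 9 lower and 8 mitochondrial genes were lower, against 2895 higher and 4117 lower over all genes. Over all genes, median-of-ratios scaling gave 3758 higher and 3838 lower, against 3158 and 4499. The block lost YARS1, AARS2, FARS2 and VARS2. NARS2 had the lowest coverage of the members, 2.55 reads per base in MEN1 shRNA replicate 3, and PARS2, the lowest in TPM, had at least 12.6, so coverage did not follow level.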

Other observations

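The deposited spans of several synthetase genes start close to that of another gene on the opposite strand. Distances here run between the outer starts of these spans, which can differ from the RefSeq starts of the promoter windows. MRPS12, a protein of the small mitochondrial ribosomal subunit whose annotated start is 181 bases from that of SARS2, had 109, 106 and 109.8 TPM in the controls and 49.9, 43.4 and 40.4 TPM with the MEN1 shRNA. All its MEN1 shRNA libraries were below all controls, and it fell by 1.26 on the log2 scale (SE 0.0826, adjusted p 3.51e-05, limma), while SARS2 did not pass (-0.25, adjusted p 0.065). Their difference was not tested. UBFD1, whose start is 10 bases from the outer start of EARS2, rose by 0.24 (adjusted p 0.0368, limma) beside the fall of EARS2 by 1.09. The RefSeq start of EARS2 used for its promoter window lies in 23557349 to 23557376, where UBFD1 starts at 23557721. ING1, 867 bases from the outer start of CARS2, rose by 0.51 (adjusted p 0.00498, limma) beside the fall of CARS2 by 0.96. The RefSeq start of CARS2 used for its promoter window lies farther off, in 110706502 to 110706529, where ING1 starts at 110712736.

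ORC3, a subunit of the origin recognition complex that starts 39 bases from RARS2, fell from 69.9 ± 1.70 to 57.2 ± 2.91 TPM (SD, n = 3 each; -0.29, adjusted p 0.00594, limma), where RARS2 had a log2 fold change of 0.04. WDR25, which starts 387 bases inside the span of WARS1, fell by 0.58 (adjusted p 0.0111, limma), next to the fall of WARS1 by 1.28. GARS1-DT, which overlaps the deposited span of GARS1 on the other strand by 14754 bases, rose by 0.26 (adjusted p 0.0431, limma), as GARS1 did by 0.27. The GARS1 window shown above, at 30594834 to 30594863, lies near the start of GARS1-DT at 30595286. Coverage was low, at 0.18 to 0.63 reads per base for WDR25 and 0.85 to 1.39 for GARS1-DT. DDX19B, 44 bases from AARS1, TARS1-DT, 47 from TARS1, LYRM4, 94 from FARS2, WARS2-AS1, 263 from WARS2, and TERF2IP, 870 from KARS1, did not pass. These distances, too, run between outer starts. No result under the other settings is given for the neighbours in this section. The spans of HARS1 and HARS2 overlap head to head by 108 bases, and neither passed. WDR55, which overlaps HARS1 by 1090 bases on the opposite strand, fell by 0.59 (adjusted p 0.00258, limma). GGA2, which overlaps EARS2 by 1242 bases on the same strand, fell by 0.25 (adjusted p 0.00961, limma). The part of these overlaps in the HARS1 and EARS2 values was not tested, and not every overlapping neighbour is named here. How reads of overlapping genes were divided is not stated in the sources used here.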
